A study of Mus musculus with 77 samples.

Results

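The vascular endothelial growth factor (VEGF) ligands and receptors were followed in the retina of mice with oxygen-induced retinopathy (OIR). The members were the ligands *Vegfa*, *Vegfb*, *Vegfc* and *Pgf*, the receptor tyrosine kinases *Flt1*, *Kdr* and *Flt4*, and the co-receptors *Nrp1* and *Nrp2*. They were chosen by name, through the RefSeq transcript each array probe is annotated with, a rule that uses no measured value. All 9 genes were on the array, with 12 of the 55681 probes that are not controls and among 21154 genes with a symbol. *Vegfa*, *Kdr* and *Nrp2* had 2 probes each and every other member had 1.

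The retinas came from C57BL/6 mice of litters assigned on P7 (postnatal day 7) to 75% oxygen (OIR) or to room air with 21% oxygen (control) until P12. Neonatal mice lose central retinal capillaries in high oxygen, and the retina that is left without vessels becomes hypoxic once the animals breathe air again. Retinas were taken on P12, when hyperoxia ended, on P17, when new vessels are most abundant in this model, and on P28, when most of them have regressed. The OIR groups held 13 mice on each day, and the control groups 12, 12 and 14 in order of age, with 1 array per mouse. The labels name no engineered allele and no agent other than oxygen. By the study's account, retinas were dissected free of other tissue and both retinas of a mouse were combined. Each array averages all retinal cell types with the vessels and the blood inside them. Pigment epithelium and lens markers were also detected, as given below, so freedom from those tissues was not shown. A lower value can stand for fewer cells of a type or for less RNA per cell, which cannot be told apart. Whole litters were assigned to oxygen and the litter of each mouse is not given, so every p-value below measures the spread between mice and cannot separate litters from oxygen.

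VEGF-A is the main signal that makes endothelial cells divide, migrate and open their junctions. Its RNA is made by glia and neurons of the retina and rises under hypoxia through hypoxia-inducible factor (HIF). It acts through the kinase VEGFR2, encoded by *Kdr*, whereas VEGFR1, encoded by *Flt1*, binds it tightly with little kinase activity and also exists as a soluble decoy. Among the receptor kinases, placental growth factor (*Pgf*) and VEGF-B (*Vegfb*) bind VEGFR1 only. VEGF-C (*Vegfc*) acts mainly through VEGFR3, encoded by *Flt4*, which is best known from lymphatic vessels. The neuropilins *Nrp1* and *Nrp2* have no kinase domain and hold VEGF beside its receptors.

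Each value below is the log2 ratio of retina over a common reference, the universal mouse reference RNA, so 0 means equal signal for retina and reference. The labels give the retina the Cy5 dye, but the rod genes *Sag*, *Gnat1* and *Pde6b* were at least 4.75 log2 units brighter in Cy3 on all 77 arrays, so Cy3 was taken as the retina channel and every sign below rests on that. Ratios were computed with an offset of 50 added to both channels, which pulls dim probes towards 0, and these are the levels given unless another scale is named. The authors' own deposited ratios carry no such offset and spread dim probes widely. A ratio to the reference cannot rank different genes or probes against each other. A call is an adjusted p under 0.05 by limma with Benjamini-Hochberg adjustment over all 55681 probes.

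The arrays lay on 11 slides scanned on 4 dates. An array detected 13765 to 34306 probes in its retina channel (signal well above background by the scanner software), with group medians from 20050 to 21099.5 on P12 and P17 and of 32169.5 and 32885 on P28, so detection was higher on P28 in both oxygen groups. Correlations between arrays of the same group ran from 0.67 to 0.99 over all probes, so no pair was identical. All 12 rod markers were well above background on every array, and 6 of 7 astrocyte, 9 of 11 pigment epithelium and 4 of 8 lens markers were above it on most arrays. Of the members, *Vegfb*, *Flt1* and both *Kdr* probes were well above background on all 77 arrays, the *Vegfa* probes on 77 and 76, the *Nrp2* probes on 77 and 72, *Vegfc* on 62, *Pgf* on 46, *Nrp1* on 25 and *Flt4* on 17. No member spot was saturated.

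*Vegfa* was the only member called between OIR and control retinas. On P17 both of its probes were higher in OIR than in control retinas by almost a doubling, with no OIR mouse inside the control range. Overlap was counted for member probes only, so the share of all probes without overlap is not known on any scale. No member probe passed the threshold on P12, at the end of hyperoxia, or on P28. On P12, 0.0233% of all probes were called, all 13 of them lower in OIR, against 0 of the 12 member probes, of which 2 had an unadjusted p under 0.05. On P17, 1.13% of all probes were called, 447 higher and 184 lower, against 2 of the 12 member probes. On P28, 0.0611% were called, against 0 of 12 member probes, with 2 at an unadjusted p under 0.05. The receptors, the other ligands and the co-receptors are described below with intervals, because with 12 to 14 mice a group an uncalled probe is not shown to be unchanged.

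**Figure D1:**
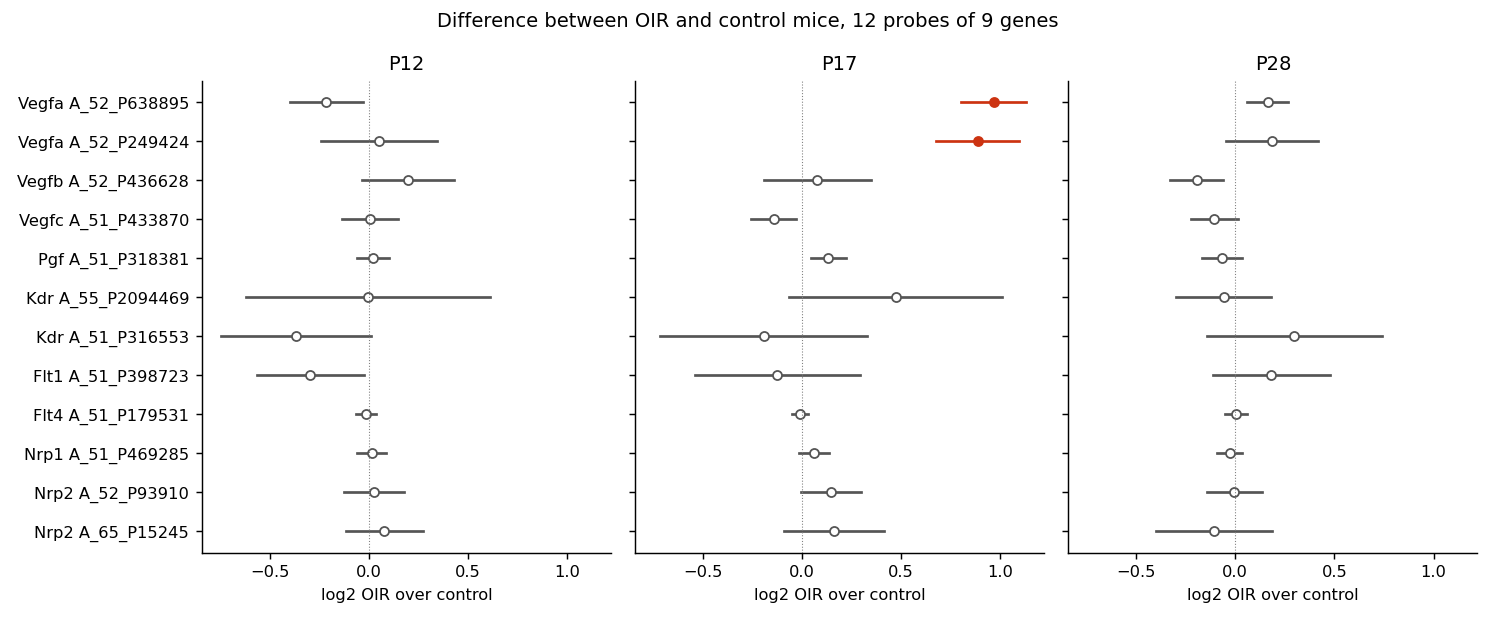
Difference in log2 ratio between OIR and control retinas for the 12 member probes on P12, P17 and P28, as dots with 95% confidence intervals from limma, filled red where the adjusted p was under 0.05. Only the 2 Vegfa probes on P17, at 0.97 and 0.88, were called.

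The sequence in front of the member genes is shown because *Vegfa* is the standard example of a hypoxia-driven gene, and because the core of a hypoxia response element can be looked for directly. RefSeq windows from 250 bases before to 50 after a start (mouse build GRCm38.p6) were on hand for all 9 members, 11 windows in all. The cores searched on both strands were ACGTG and GCGTG for HIF and CCGGAA and CAGGAA for ETS factors, a family active in endothelial cells. The HIF cores differ from each other in 1 letter, and neither holds an ETS core. Either HIF core occurred in 43.8% of all 32851 windows and in 7 of the 11 member windows. Either ETS core occurred in 41.4% of all windows and in 4 of the member windows. Such short letters are common, so a match describes the sequence and does not name a bound site. The outer of the *Vegfa* starts is given with its 250 upstream bases, and the inner *Vegfa* start, *Pgf*, *Kdr* and *Flt1* with 30 bases around each HIF core, read 5′ to 3′ on the strand of the gene, with HIF and ETS cores in capitals. A core on the other strand stands there as its reverse complement.
Vegfa, outer start, chr17:46032378-46032627, minus strand: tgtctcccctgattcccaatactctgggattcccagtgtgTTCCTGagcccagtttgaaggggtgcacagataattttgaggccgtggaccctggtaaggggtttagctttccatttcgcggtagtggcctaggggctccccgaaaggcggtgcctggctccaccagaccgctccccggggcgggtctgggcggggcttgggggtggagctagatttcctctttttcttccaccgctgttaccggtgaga
Vegfa, inner start, chr17:46025361-46025390, minus strand: ccctggagtGCGTGccCACGTcagagagca
Pgf, chr12:85177421-85177450, minus strand: cgccctgcggggtCACGCgcactcaggtct
Kdr, distal core, chr5:75978570-75978599, minus strand: agtgggggagtggGCGTGggaaaccgggaa
Kdr, proximal core, chr5:75978528-75978557, minus strand: tatccagtgggggGCGTGgccggacgcagg
Flt1, chr5:147726179-147726208, minus strand: cctagcgccaccgCACGCgcgctctggccc
The outer *Vegfa* window held no HIF core and 1 ETS core, from position -210 on the other strand (the base before the start is position -1). A window at the inner start, inside the gene, held GCGTG from position -218 and, on the other strand, ACGTG from position -211. ACGTG alone occurred in 19.6% of all windows and GCGTG alone in 32.4%. The known hypoxia element of *Vegfa* lies farther upstream than these windows reach, so the letters printed here do not bear on it. The *Kdr* window held GCGTG from positions -131 and -89, and *Flt1* and the first *Pgf* window held 1 each on the other strand, from positions -184 and -124. *Flt4* and *Vegfc* had no HIF core in these windows.

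*Vegfa* (chr17:46016993-46032377) was described first through its brighter probe, A_52_P638895, which was well above background on every array. On P12 the control mice ranged from -0.99 to -0.09 with a median of -0.34, and the OIR mice from -1.06 to -0.18 with a median of -0.62. The ranges overlapped, with 12 of the 13 OIR mice under the control median and 1 below every control. The OIR retinas were lower by 0.21 on the log2 scale (log2 fold change -0.21, SE 0.0892, unadjusted p = 0.0242 by limma), which did not survive adjustment over all probes (adjusted p = 1). Its 95% interval ran from -0.40 to -0.03. On 6 of the 7 slides that carried both groups the OIR mean lay below the control mean, with slide differences from -0.58 to 0.21.

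On P17 the same *Vegfa* probe ranged in control mice from -0.73 to -0.19 around a median of -0.40. In OIR mice it ranged from 0.26 to 0.82 around a median of 0.53. Every OIR retina was therefore above every control retina. The group means were 0.53 ± 0.21 (SD, n = 13) and -0.43 ± 0.20 (SD, n = 12), a log2 fold change of 0.97 (SE 0.0786, 95% interval 0.80 to 1.13) or 1.95-fold, with an adjusted p of 2e-08 by limma. It was the probe with the 16th smallest p of all 55681. The OIR mean was above the control mean on 6 of 6 shared slides, by 0.62 to 1.03 with a median of 0.91.

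On P28 *Vegfa* ranged in control mice from -0.62 to -0.25 around -0.45, and in OIR mice from -0.49 to 0.01 around -0.22. The groups overlapped again, although 12 of the 13 OIR mice were over the control median and 7 above every control. OIR exceeded control by a log2 fold change of 0.16 (SE 0.0503, 95% interval 0.06 to 0.27), with an unadjusted p of 0.00305 and an adjusted p of 0.462 by limma. On the 3 slides with both groups the OIR mean was higher on 2, with differences from -0.05 to 0.34.

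**Figure D2:**
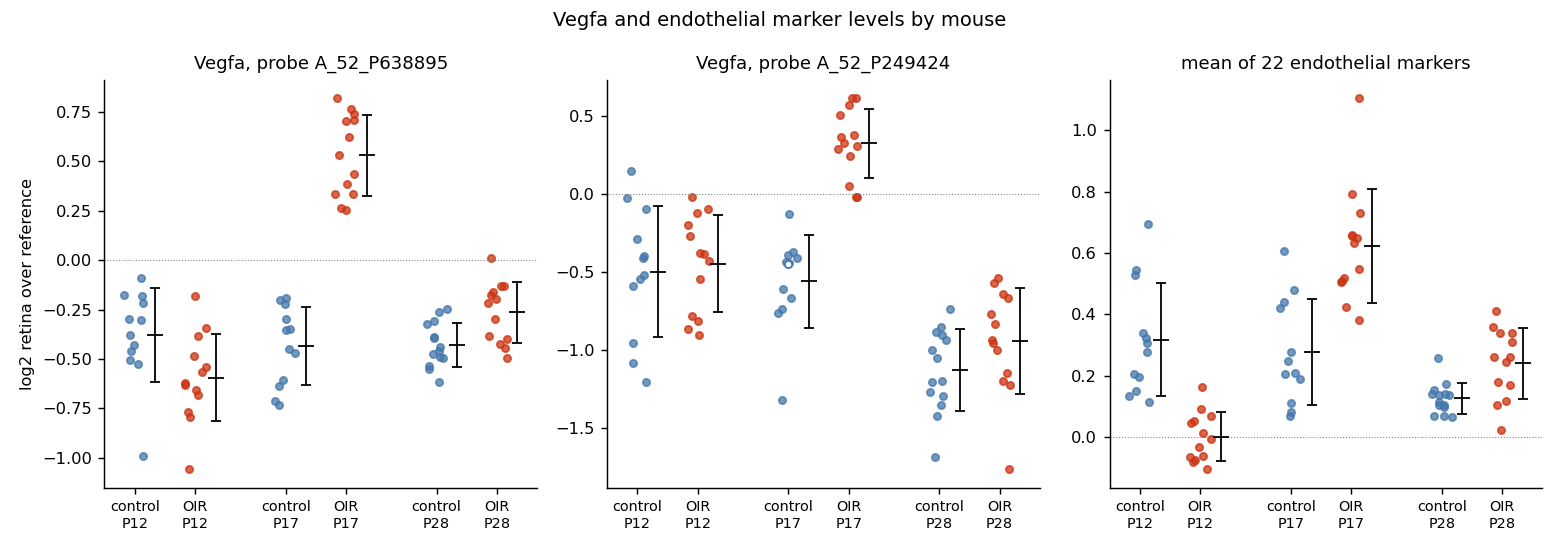
Log2 ratio of retina over reference for both Vegfa probes (left and middle) and for the mean of 22 endothelial markers (right), 1 point per mouse. Control mice are blue and OIR mice red, with black bars for the mean ± SD. In the Vegfa panels, open points were not well above background. On P17 the OIR points lie wholly above the control points for both Vegfa probes, and on P12 and P28 the groups overlap. For the marker mean the groups overlap on each day.

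The other *Vegfa* probe, A_52_P249424, gave the same picture on P17 and a different one for age. On P17 the control mice ranged from -1.32 to -0.13 around -0.44 and the OIR mice from -0.02 to 0.61 around 0.33. The groups did not overlap, and the log2 fold change was 0.88 (SE 0.101, 95% interval 0.68 to 1.09), 1.85-fold, with an adjusted p of 5.33e-06 by limma. On P12 the controls ranged from -1.21 to 0.15 around -0.46 and the OIR mice from -0.91 to -0.02 around -0.38, with a log2 fold change of 0.05. The slightly lower values of the brighter probe on P12 were thus not seen with this one. On P28 the controls ranged from -1.68 to -0.74 around -1.13 and the OIR mice from -1.76 to -0.54 around -0.93, with a log2 fold change of 0.19 and an adjusted p of 0.693.

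The effect of OIR on *Vegfa* differed between days by a test of the difference itself. Between P12 and P17 the effect of OIR rose by 1.18 on the log2 scale for the brighter probe (adjusted p = 2.35e-13 by limma) and by 0.83 for the other (adjusted p = 0.00355). This change of effect was called for 0.480% of all probes and for 2 of the 12 member probes. Between P17 and P28 the effect fell by 0.80 (adjusted p = 6.05e-07) and by 0.70 (adjusted p = 0.0438). That change was called for 0.278% of all probes and again for 2 member probes, the same pair. With the slide as a block the second probe's fall was 0.61 and no longer called (adjusted p = 0.0966).

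The P17 response of *Vegfa* kept its direction on every scale tried. With the slide as a block, which used only contrasts among arrays of 1 slide, the log2 fold changes were 0.88 (adjusted p = 2.34e-06 by limma) and 0.77 (adjusted p = 0.000853), beside 1.49% of all probes called. On the deposited ratios they were 1.13 and 1.60, beside 2.64% of all probes called, and the groups did not overlap there either. Without loess, with only the median of each array removed, they were 0.78 and 0.79 and not called (adjusted p = 1 for both), where 4 of the 55681 probes were called in all.

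Across the 6 groups the brighter probe was ordered OIR P17, OIR P28, control P12, control P28, control P17 and OIR P12. The gap from OIR P17 to OIR P28 was 0.79, beyond the larger SD of the pair, 0.21, and all other neighbours differed by less than their SD. For the other probe the order was OIR P17, OIR P12, control P12, control P17, OIR P28 and control P28, with gaps beyond the SD between OIR P17 and OIR P12 (0.77) and between control P17 and OIR P28 (0.38). The 2 probes are annotated with different transcripts of *Vegfa*, and their deviations from the group means correlated only moderately over the 77 arrays (r = 0.42).

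*Vegfb* (chr19:6982472-6987651) was not called on any day. Its group means ran from -0.79 to -0.49, with SDs from 0.17 to 0.41. The log2 fold change for OIR was 0.20 on P12 (95% interval -0.03 to 0.43), 0.08 on P17 (-0.19 to 0.35) and -0.19 on P28. The P28 value had an SE of 0.065, an unadjusted p of 0.00638 and an adjusted p of 0.544 by limma. On P28 the controls ranged from -0.70 to -0.03 around -0.52 and the OIR mice from -0.95 to -0.29 around -0.69, so 11 of the 13 OIR mice were under the control median and the groups overlapped. On all 3 slides with both groups on P28 the OIR mean was lower.

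*Pgf* (chr12:85166637-85177785) was dim, and its value depended on the scale. On P17 its signal cleared background in 11 of 13 OIR and in 3 of 12 control mice. On P17 the controls ranged from -0.41 to -0.02 around -0.18 and the OIR mice from -0.25 to 0.07 around -0.03. The groups overlapped, with 12 of the 13 OIR mice over the control median and 4 above every control. The log2 fold change was 0.13 (SE 0.0419), with an unadjusted p of 0.00399 and an adjusted p of 0.162 by limma. On the deposited scale, with no offset, the controls ranged from -2.03 to -0.33 around -1.02 and the OIR mice from -0.73 to 0.23 around -0.14. There the difference was 0.85 and was called (adjusted p = 0.00116 by limma), with 9 of the 13 OIR mice over every control. On that deposited scale with the slide as a block it was 0.89 (adjusted p = 0.00798). In the retina channel alone, without division by the reference, it was 0.29 and called (adjusted p = 0.0101), beside 3.04% of all probes called on that scale. *Pgf* was called on P17 under these 3 of the 14 settings only. With the slide as a block it was not called on the offset scale or in the retina channel. The direction was the same on all of these scales, and the OIR mean was higher on 5 of 6 shared slides. On P12 and P28 the log2 fold changes were 0.02 and -0.07, neither called.

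*Vegfc* (chr8:54077532-54186454) lay on the opposite side of the controls on P17. It was well above background in 11 of 12 control mice and in 6 of 13 OIR mice on that day. The controls ranged from -0.70 to -0.29 around -0.56 and the OIR mice from -0.95 to -0.43 around -0.71. The groups overlapped, with 11 of the 13 OIR mice under the control median and 7 below every control. The log2 fold change was -0.14 (SE 0.0556, 95% interval -0.26 to -0.03) with an adjusted p of 0.324 by limma, so the difference was not called on this scale. It was called with the slide as a block (-0.18, adjusted p = 0.0486) and on the deposited scale (-1.06, adjusted p = 0.00275), where the controls ranged from -1.83 to -0.89 around -1.26 and the OIR mice from -3.45 to -1.41 around -2.52. In all it was called under 6 of the 14 settings, and not in the retina channel alone, with or without the slide as a block. The OIR mean was lower on 6 of 6 shared slides, by 0.06 to 0.27. On P12 and P28 the log2 fold changes were 0.01 and -0.10, neither called. The size of the P17 difference of *Pgf* and *Vegfc* therefore cannot be stated on 1 scale. The number of arrays above background is given beside the ratio, and the weight of each was not tested.

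**Figure D3:**
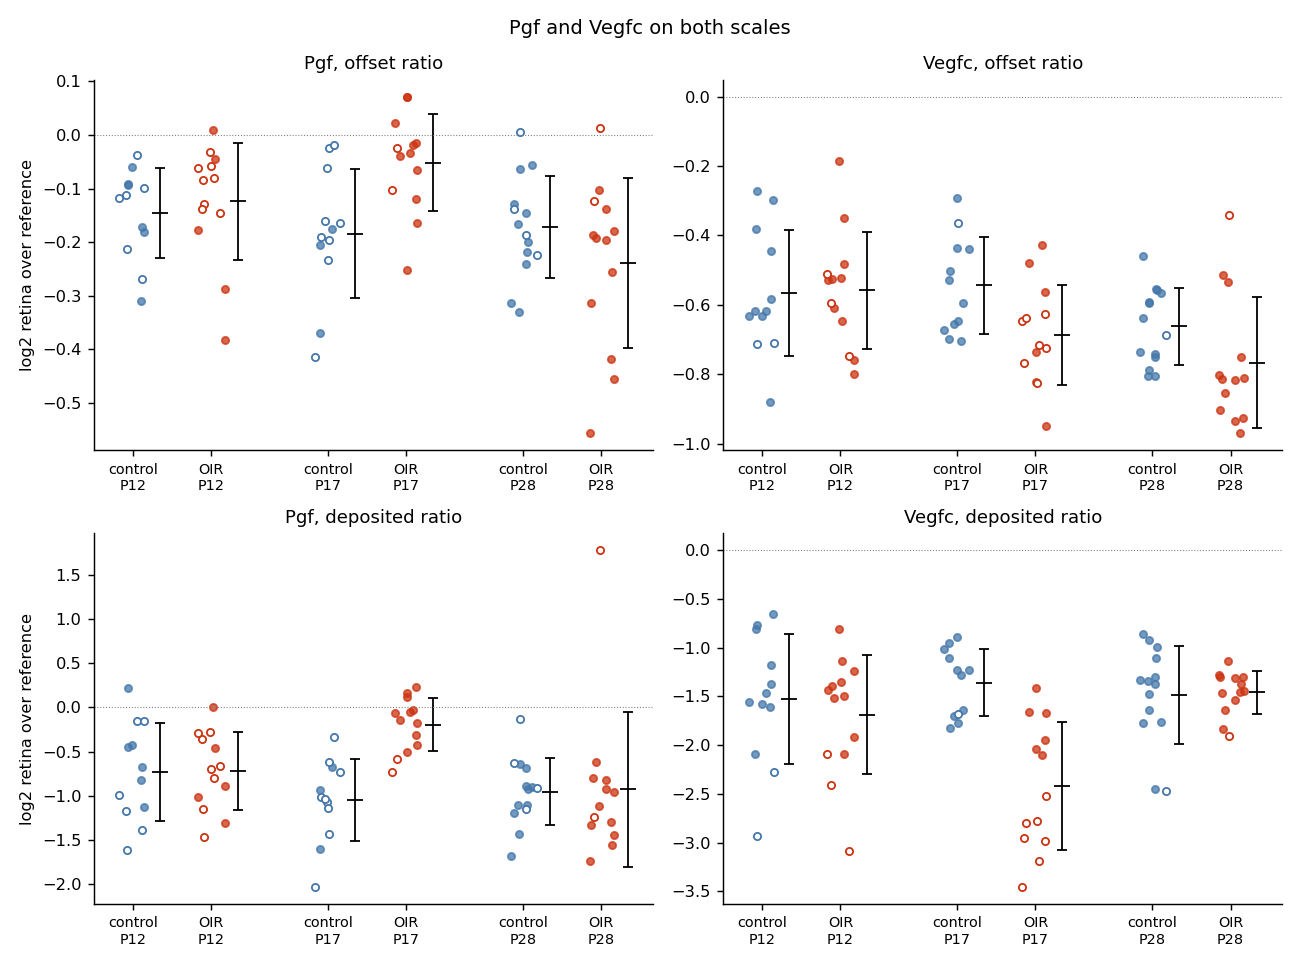
Log2 ratio of retina over reference for Pgf and Vegfc by mouse, on the scale with an offset of 50 and on the deposited scale, with control mice in blue, OIR mice in red, black bars for the mean ± SD and open points where the probe was not well above background. The P17 difference, up for Pgf and down for Vegfc, is narrow on the first scale (0.13 and -0.14) and wide on the second (0.85 and -1.06).

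The remaining VEGF family ligand on the array, *Vegfd*, another ligand of VEGFR3, was above background on 25 of 77 arrays. Its log2 fold changes were 0.26, 0.23 and -0.25 on P12, P17 and P28, and none was called.

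*Flt1* (chr5:147561604-147726438) differed between ages and was not called between the oxygen groups on any day. On P12 the controls ranged from 0.57 to 1.55 around 0.70 and the OIR mice from 0.26 to 1.51 around 0.46. The groups overlapped, although 8 of the 13 OIR mice were under every control and 11 below the control median. The log2 fold change was -0.29 (SE 0.13, 95% interval -0.56 to -0.03, unadjusted p = 0.0329, adjusted p = 1 by limma), and the OIR mean was lower on 6 of 7 shared slides. On P17 the controls ranged from 0.80 to 2.44 around 1.25 and the OIR mice from 0.81 to 2.45 around 1.16. These ranges almost coincided, with a log2 fold change of -0.12 (SE 0.201, 95% interval -0.54 to 0.29, adjusted p = 0.844) and OIR means lower on 4 and higher on 2 of 6 shared slides. On P28 the controls ranged from 1.18 to 2.40 around 2.03 and the OIR mice from 1.30 to 2.43 around 2.24, with a log2 fold change of 0.18 (95% interval -0.11 to 0.48).

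*Kdr* (chr5:75932827-75979072) had 2 probes for the same transcript that did not vary together, with r = -0.39 between their deviations from the group means over 77 arrays. The probe A_51_P316553 had ratios of 2.19 to 3.09 in the group means, and its reference signal was well above background on only 28 arrays, so its ratio has a poorly measured denominator. Its OIR log2 fold changes were -0.37 on P12 (95% interval -0.75 to 0.01), -0.19 on P17 (-0.71 to 0.33) and 0.30 on P28, with none called. On P12, 12 of the 13 OIR mice were under the control median and 4 below every control. The probe A_55_P2094469 had group means from -0.41 to 0.62 with SDs up to 0.79, and log2 fold changes of 0.00 (95% interval -0.62 to 0.61), 0.47 (-0.06 to 1.01) and -0.06 in the same order, with none called. On P17 the ranges overlapped, from -1.14 to 0.87 in controls and from -1.01 to 1.33 in OIR mice, and 7 of the 13 OIR mice were over every control. On the deposited scale A_51_P316553 stood at 0.17 on P17 and -0.64 on P28, the signs opposite to those above, and A_55_P2094469 at 0.55 on P17, again with none called. No direction is given for *Kdr*, because the probes differed and the signs depended on the scale.

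**Figure D4:**
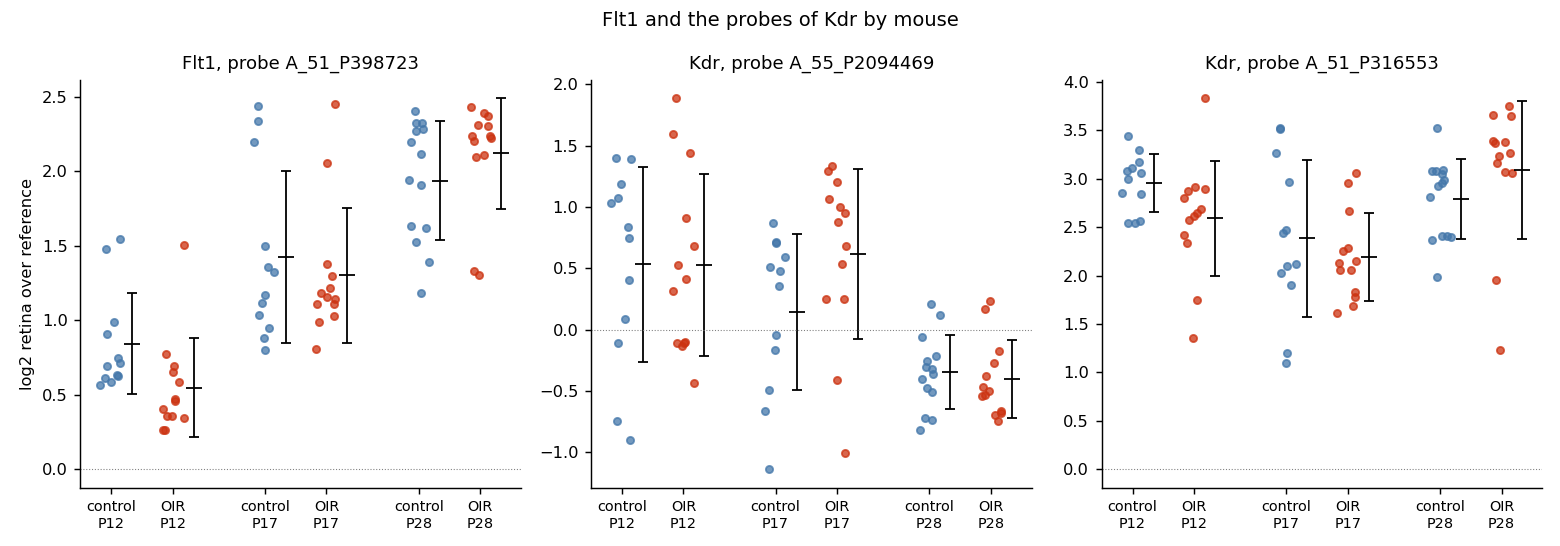
Log2 ratio of retina over reference by mouse for Flt1 and both Kdr probes, with control mice in blue, OIR mice in red, black bars for the mean ± SD and open points where the probe was not well above background. Flt1 climbs from group means of 0.84 and 0.55 on P12 to 1.94 and 2.12 on P28 in control and OIR mice, and the OIR and control points overlap in every panel.

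*Flt4* (chr11:49609679-49652739) was not well above background on any OIR array on P12 or P17 or on any control array on P17. It was above it on 1 of 12 control arrays on P12, on 7 of 14 on P28 and on 9 of 13 OIR arrays on P28. Its group means of 0.05 to 0.06 lie near 0, where the offset puts a probe with little signal in both channels, and no fold is given. *Nrp1* (chr8:128358591-128505476) was above background on 2 of 12 control and 0 of 13 OIR arrays on P12, on 1 array of each group on P17, and on 10 of 14 and 11 of 13 arrays on P28. Its group means lay between -0.13 and -0.07, and the interval of its P17 difference ran from -0.01 to 0.13. Both genes are known from retinal vessels, and the arrays do not show whether they differed with oxygen.

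*Nrp2* (chr1:62703317-62818692), the co-receptor best known for binding VEGF-C, was measured by 2 probes of different transcripts. For A_52_P93910 the controls on P17 ranged from -1.80 to -1.06 around -1.62 and the OIR mice from -1.63 to -1.14 around -1.54. The ranges overlapped, with 12 of the 13 OIR mice over the control median but none above every control. The log2 fold change was 0.15 (95% interval -0.00 to 0.29, adjusted p = 0.495 by limma). For A_65_P15245 it was 0.16 on P17, and 11 of the 13 OIR mice were over the control median. On P12 the values were 0.03 and 0.08, and none of these was called. In the order of levels over the 6 groups, neighbours of *Vegfb*, *Vegfc*, *Pgf*, *Kdr*, *Flt4*, *Nrp1* and A_52_P93910 all differed by less than the larger of their SDs, and for A_65_P15245 the step from control P17 to control P28, 0.39, was the exception.

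The comparisons between ages called from 0 to 7 of the 12 member probes, beside 0 to 2 between oxygen groups. Over all probes the shares also differed, from 1.28% to 40.6% between ages and from 0.0233% to 1.13% between oxygen groups. Age moved with the slides and with the higher detection on P28, and their part in these values was not tested beyond the slide block. From P12 to P17, 1.28% of all probes were called in control mice and 0 of the 12 member probes, with 3 at an unadjusted p under 0.05. With the slide as a block 3.16% of all probes and 3 member probes were called in that comparison, namely *Flt1* higher by 0.49 (adjusted p = 0.00029), the *Kdr* probe A_51_P316553 at -0.60 (adjusted p = 0.000174) and the *Nrp2* probe A_52_P93910 at -0.30 (adjusted p = 0.00164). In OIR mice 3.43% of all probes were called from P12 to P17, and 3 member probes, all higher: *Vegfa* by 1.12 (adjusted p = 1.22e-20) and 0.77 (adjusted p = 2.53e-06) and *Flt1* by 0.75 (adjusted p = 0.00106). In the control mice the same step gave -0.06 for both *Vegfa* probes and 0.58 for *Flt1* (SE 0.169, adjusted p = 0.066).

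From P17 to P28 the comparison was much wider. In control mice 13.4% of all probes were called and 4 member probes, with *Vegfb* at 0.30 (adjusted p = 0.0488) and *Flt1* at 0.51 (adjusted p = 0.026) higher, and the *Vegfa* probe A_52_P249424 at -0.57 (adjusted p = 0.000571) and the *Nrp2* probe A_65_P15245 at -0.39 (adjusted p = 0.0253) lower, although without loess both of these turned positive, at 0.33 and 0.34. The brighter *Vegfa* probe stood at 0.01 in the same step. In OIR mice 40.6% of all probes were called, and 7 of the 12 member probes. Only 1 slide held OIR arrays of both days, with 2 arrays of P17 and 1 of P28, so age and slide could hardly be separated there.

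Of those 7 calls in OIR mice, both *Vegfa* probes fell from P17 to P28, by 0.79 (adjusted p = 1.67e-13) and by 1.27 (adjusted p = 4.6e-13), although without loess the signs turned, to 0.98 and 0.12. *Flt1* rose by 0.82 (adjusted p = 3.38e-05), and was positive under every setting tried, from 0.31 with the scan date as a block to 2.39 without loess. The *Kdr* probes moved apart, with A_55_P2094469 at -1.02 (adjusted p = 0.000272) and A_51_P316553 at 0.90 (adjusted p = 0.000655), and the latter was -1.31 on the deposited scale. The reference channel alone, which should not depend on the mouse, differed by -0.93 for A_55_P2094469 in that comparison (adjusted p = 0.00907 by limma). It was not alone, as 3536 of all 55681 probes were called there on the reference channel. *Pgf* at -0.19 and the *Nrp2* probe A_65_P15245 at -0.66 made up the rest. *Flt1* was ordered OIR P28, control P28, control P17, OIR P17, control P12 and OIR P12, and of its neighbours only OIR P17 and control P12 were farther apart (0.46) than the larger of their SDs (0.45). The change of the *Flt1* effect of OIR was not called in either step (0.17 from P12 to P17 and 0.31 from P17 to P28).

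The genes whose values deviated from their group means most like each member's were found among 11891 candidate genes over the 77 arrays, as a description. These correlations share arrays and slides with each other, and removing the slide means lowered most of them. For *Vegfa* the most alike genes were *P3h3* (r = 0.65), *Hmmr* (0.58) and *Prpf3* (0.57), and for *Vegfb* they were *Mapk3* (0.92), *Srm* (0.90) and *Aspscr1* (0.89). *Flt1* was most like *Aagab* (0.94), *Cry2* (0.93) and *Fbxo21* (0.93). *Nrp2*, by A_52_P93910, was most like *Unc5b* (0.70), a netrin receptor, *Mrps15* (0.68) and *Haus4* (0.68). With slide means removed these 3 values were 0.53, 0.64 and 0.61, so *Unc5b* did not stand out. *Vegfc* was most like *Dock11* (0.75) and *Pgf* most like *Parvb* (0.73, but 0.13 on the deposited ratios). The *Kdr* probe A_55_P2094469 was most like *Krtap19-4* (0.98), a hair keratin-associated gene, *Cyp17a1* (0.97), a steroid hydroxylase, and *Gfra4* (0.97). None of the leading genes for this *Kdr* probe or for *Flt1* is among the endothelial markers used here. The other *Kdr* probe correlated at 0.79 with *Flt1* (0.61 with slide means removed). It correlated about as strongly, at -0.84, with the *Nrp2* probe A_65_P15245 (-0.42 with slide means removed).

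Endothelial cells carry the VEGF receptors, and their markers moved with oxygen on the same arrays. The mean ratio of 22 endothelial markers ranged on P12 from 0.11 to 0.69 around 0.29 in controls and from -0.10 to 0.16 around -0.01 in OIR mice. On P17 it ranged from 0.07 to 0.61 around 0.23 in controls and from 0.38 to 1.10 around 0.63 in OIR mice. On P28 it ranged from 0.07 to 0.26 around 0.13 and from 0.03 to 0.41 around 0.26. The marker mean was thus lower in OIR on P12 and higher on P17, with some overlap on each day. On P12, 4 of the 22 markers were called, all lower, namely *Cd93* (-1.03), *Egfl7* (-0.86), *Cd34* (-0.81) and *Ramp2* (-0.66). On P17, 7 were called, all higher, led by *Cd93* (1.63), *Cd34* (1.33) and *Egfl7* (1.09), and 0 on P28. With the slide as a block 2 were called higher on P28. On the deposited scale 7 were called lower on P12, with a median of -1.14 against -0.18 on the scale used here, and 9 higher on P17. Over the 77 arrays the deviations of *Flt1* correlated with those of the marker mean at 0.73 (0.37 with slide means removed) those of the *Kdr* probe A_51_P316553 at 0.60 (0.26), and those of A_55_P2094469 at -0.71 (-0.59). The part of the endothelial markers in the values of the receptors was not tested. On P17, 4 of 12 mural, 3 of 12 microglia and macrophage and 3 of 7 astrocyte markers were called higher, the last including *Gfap* (0.97). Of 12 Mueller glia markers *Vim* (1.19) was called higher and *Car2* (-0.65) lower, with a median of -0.34. Of the ganglion cell, amacrine cell, lens and pigment epithelium lists 1 marker each was called lower. Among red blood cell genes *Hba-a1* was higher (1.38), which was not called with the slide as a block (1.37, adjusted p = 0.0506).

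Genes that act with or after VEGF were taken from lists. Of 35 measured genes of VEGF receptor signalling, among them the phospholipase *Plcg1* and the kinases *Akt1* and *Src*, 0 were called on P12, P17 or P28, and their median log2 fold changes were -0.01, 0.00 and 0.02 beside medians over all probes of 0.00 on each day. On the deposited scale *Prkcb* (-0.73) and *Prkca* (-0.41) were called lower and *Shc1* (0.53) higher on P17, and with the slide as a block *Prkca* (-0.38) and *Shc1* (0.35) were called.

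Of 22 measured partners and brakes of the receptors, 1 was called on P12 and 2 on P17, with medians of 0.05, 0.08 and -0.03 on P12, P17 and P28. *Plxnd1*, the semaphorin receptor that restrains VEGF-driven sprouting, was called on both of these days. On P12 its controls ranged from -1.08 to -0.20 around -0.86 and its OIR mice from -1.56 to -0.90 around -1.29, with a log2 fold change of -0.47 (SE 0.0866) at the edge of the threshold (unadjusted p = 1.17e-05 and adjusted p just under 0.05 by limma). On P17 the controls ranged from -1.51 to -0.80 around -1.13 and the OIR mice from -0.20 to 0.94 around 0.35. The groups were apart on P17, and the log2 fold change was 1.42 (SE 0.0953, adjusted p = 1.53e-09). On P28 it was 0.45 and not called (adjusted p = 0.0623). Its change of effect was 1.90 from P12 to P17 (adjusted p = 1.28e-18) and -0.97 from P17 to P28 (adjusted p = 1.5e-06). *Unc5b* was higher on P17 by 0.58 (SE 0.0878, adjusted p = 0.000306). With the slide as a block *Cdh5* (0.42), the endothelial cadherin that VEGFR2 binds, and *Robo4* (0.65) were called on P17 as well, and *Ptprb* (-0.59), the phosphatase that dampens VEGFR2, and *Robo4* (-0.42) on P12. On P28 the block gave 3 of the 22 as higher, namely *Plxnd1* (0.48), *Ptprb* (0.58) and *Robo4* (0.27), and the deposited scale gave 2. *Cdh5* and *Robo4* are also among the endothelial markers above.

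Of 21 genes that VEGF induces in endothelial cells, 5 were called on P17, all higher, and 0 on P12 and P28, with a median of 0.18 on P17. That median was 0.08 with the slide as a block and 0.35 on the deposited scale, where 7 were called, and under both 1 was called on P28, *Apln* (0.50 and 1.97). *Esm1*, secreted by tip cells, was well above background on 13 of 13 OIR arrays on P17, on 1 of 12 control arrays on P17 and on none on P12. On P17 its controls ranged from -2.24 to -0.47 around -1.18 and its OIR mice from -0.47 to 1.27 around 0.22, so the ranges met at their ends. OIR retinas were higher by 1.56 on the log2 scale (SE 0.197, adjusted p = 2.41e-05 by limma). *Apln*, the tip-cell peptide apelin, was higher by 1.42 (SE 0.162, adjusted p = 4.8e-06). The immediate early transcription factors *Nr4a1* (0.96) and *Egr1* (0.75) and the protease *Adamts1* (0.68) made up the rest. *Dll4* and *Angpt2*, 2 other genes of sprouting vessels on the list, stood at 0.00 and 0.38 on P17 and were not called.

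Of 23 hypoxia-induced genes, 5 were called on P17, the day of the *Vegfa* response, all higher, with a median of 0.23, and 0 on P12 (median -0.07) and P28 (0.02). They were *Adm* (1.31), the vasodilator adrenomedullin, *Bnip3* (0.84), a mitophagy receptor, *Pfkfb3* (0.58), an activator of glycolysis, *Higd1a* (0.54) and the collagen hydroxylase *P4ha2* (0.54). For *Bnip3* the controls ranged on P17 from -1.32 to -0.60 around -1.04 and the OIR mice from -0.92 to 0.44 around -0.19. The ranges overlapped slightly, and the adjusted p was 2.93e-05. The glucose transporter *Slc2a1* was at 0.33 (adjusted p = 0.272), and at 0.42 and called with the slide as a block. Of 10 HIF subunits and oxygen sensors 0 were called on any day, with medians of 0.01, -0.03 and 0.06. *Hif1a* stood at -0.46 on P17 (adjusted p = 0.264) and *Epas1* at -0.22 (adjusted p = 0.784). On the deposited scale 1 of these 10 and 9 of the 23 hypoxia-induced genes were called higher on P17, and 1 of the latter lower.

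**Figure D5:**
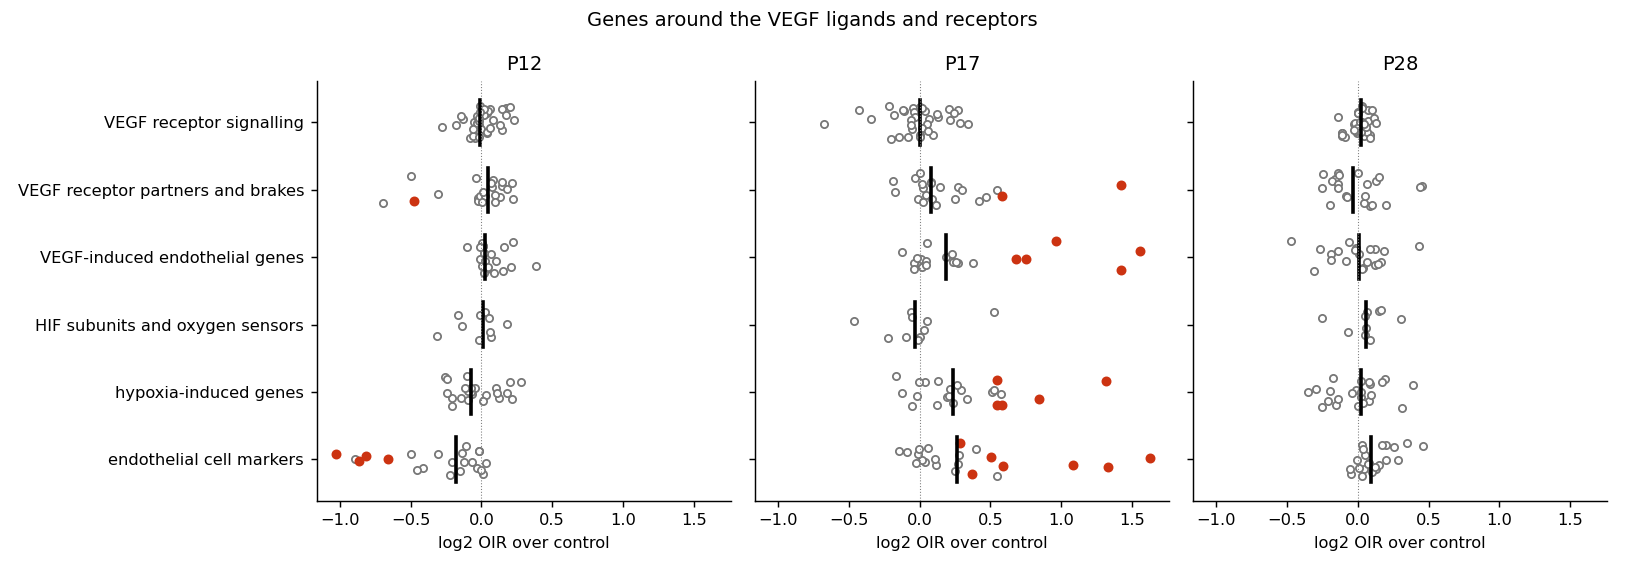
Log2 difference between OIR and control on P12, P17 and P28 for the genes of each list, 1 point per gene, red where the adjusted p was under 0.05, with a black line at the median of the list. On P17, 5 genes of each of the VEGF-induced and hypoxia-induced lists are red and lie to the higher side, and none of the receptor signalling genes is red on any day.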

How the data were processed

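Whole-retina RNA of 77 mice was compared with 1 common reference RNA on 2-colour Agilent arrays. The deposited scanner files hold spot intensities from Feature Extraction 10.7.3.1, and the deposited table holds log2 ratios that equalled log2 of the processed Cy3 over Cy5 signal for 100% of single-spot probes (tolerance 0.001). From the median intensities, ratios were recomputed with limma 3.58.1 in R 4.3.3 (normexp with an offset of 50, loess within arrays), leaving out outlier-flagged spots (0.29% to 0.582% per array) and averaging spots of a probe. Of 55681 probes, 28026 had a symbol from RefSeq (GRCm38.p6), which also gave the promoters. OIR and control were compared by limma on each day in separate fits. Age and change of effect used 1 fit of 6 groups. On simulated data with 200 probes changed by 1 log2 unit the P17 fit recovered 196 with 8 false calls. The simulated noise was independent between arrays, without slides or litters, so these counts do not give the error rates or power in the real data.

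Members, lists and motifs were chosen with earlier results of these data known. All members are named with every probe, and the lists through up to 4 called genes with the largest change, beside *Vegfd*, *Adamts1*, *P4ha2*, *Prkca*, *Prkcb*, *Shc1*, *Cdh5*, *Robo4*, *Ptprb*, *Dll4*, *Angpt2*, *Slc2a1*, *Hif1a*, *Epas1* and cell markers, which were named after their values were seen. Genes were likened by Pearson correlation of deviations from the group means. Alternatives were tried for background, offset, loess, reference channel, dim probes, slide, weighting, estimation and samples in the fit. The number of arrays limits the precision, as arrays carry no read depth.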

Additional observations from a re-analysis of the deposited data

Results flagged for a closer look

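The effect of OIR on *Vegfa* differed between days by a test of the difference itself. From P12 to P17 it changed by 1.18 (A_52_P638895) and 0.83 (A_52_P249424) on the log2 scale, and from P17 to P28 by -0.80 and -0.70, with adjusted p-values of 2.35e-13, 0.00355, 6.05e-07 and 0.0438 by limma. With the slide as a block the 4 values were 1.19, 0.81, -0.75 and -0.61, the last no longer called. The part of the higher detection on P28 was not tested.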

How the results depend on the processing

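No paired analysis was possible because the mouse numbers are unique and the groups share none. The alternatives were 11 planned settings and 2 chosen after seeing the data (scan date as a block, and the retina channel alone with the slide as a block). Of 468 member values for OIR against control, 457 stayed on their side of the threshold, 9 became called and 2 lost the call. In 79 the sign changed, none of them called, among them *Kdr* A_51_P316553 on P28, which ran from -0.64 to 0.65. The 2 called probes on P17 became 4 on the deposited ratio with or without the slide block (*Pgf* and *Vegfc* added) and 0 without loess. Of all probes, 631 were called there in the main fit. The deposited ratio gave 1235 with the block and 1471 without it, and 4 were called without loess. Without loess the change of effect gave 0 calls in both steps. From P17 to P28 that change gave 1 call with an offset of 0, the slide block, the scan date block, the deposited ratio with the slide block, and the retina channel alone with the slide block. Control P17 against P12, with 0 calls, gave 2 without background subtraction, with an offset of 0 and on the deposited ratio with or without the block, 1 with dim probes left out, and 3 with the retina channel alone (also with the block), the slide, the scan date or array weights. Of all probes, 714 were called there in the main fit. In the order just given, the other settings called 1030, 1137, 2326, 1432, 854 (of 32393 kept), 1739, 3307, 1759, 1479 and 1626 probes. Control P28 against P17, with 4 calls, gave 2 with an offset of 0 or the retina channel alone, 8 without loess (where 46372 of all 55681 probes were called) and 1 with other samples in the fit. Of all probes, 6889, 8342 and 6676 were called with the offset of 0, the retina channel and other samples, beside 7435 in the main fit. OIR P17 against P12, with 3 calls, gave 5 on the deposited ratio with the block and on the retina channel alone, 7 on the latter with the block, and 0 without loess. Of all probes, 5811, 4618, 7544 and 56 were called there in the same order of settings. Among called values a sign changed between ages only from P17 to P28. In controls without loess *Vegfa* A_52_P249424 was 0.33, *Vegfc* 0.67, *Kdr* A_55_P2094469 0.72 and *Nrp2* A_65_P15245 0.34, and *Flt4* was 0.70 on the deposited ratio. In OIR mice without loess *Vegfa* was 0.98 and 0.12, *Vegfc* 1.01, *Kdr* A_55_P2094469 0.92, *Nrp1* 0.10 and *Nrp2* 1.51 and 0.33. *Vegfc* was also 0.44 with an offset of 0, 0.96 on the deposited ratio and 0.38 in the retina channel alone, and *Kdr* A_51_P316553 was -0.50 with an offset of 0, -1.31 on the deposited ratio and -0.48 with the block added. The causes were not tested. *Pgf*, *Vegfc*, *Flt4* and *Nrp1* lie near background, which limits what their ratios show.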
